A study of Oryctolagus cuniculus with 24 samples.

Results

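The caecal epithelium of rabbits that had received ova of the pig whipworm Trichuris suis (TSO), but no colitis-inducing agent, was compared with that of rabbits given the vehicle. The libraries were chosen by their labels, as intestinal epithelial cells (IEC) of the TSO Water and Veh Water groups, which gave 6 of the 24 libraries of the study, 3 for each group. In these libraries, 0 of 10114 tested genes were differentially expressed by limma with Benjamini-Hochberg adjustment, and 0 by the quasi-likelihood test of edgeR, whereas the likelihood ratio test of edgeR called 22 and DESeq2 25. A pair of genes with at most 64 reads in any Veh Water library had 1133 to 8794 reads in the TSO Water libraries, and both were also higher in every TSO than in every vehicle rabbit that received dextran sodium sulphate (DSS). At an unadjusted p-value under 0.05, 244 genes were higher and 87 lower in TSO Water, but 109 were higher and 210 lower when libraries were scaled by size alone, and 148 and 143 without Veh Water rabbit 3.

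The study used New Zealand white rabbits, with 3 rabbits in each of 4 groups, and sequenced IEC and lamina propria mononuclear cells (LPMC) of the same 12 animals. TSO Water rabbits received 3 intragastric doses of 2500 embryonated ova and Veh Water rabbits the acidic buffer without ova. Fennel tea replaced the drinking water of all groups, and it held 0.1% DSS for the Veh DSS and TSO DSS groups, which serve here only for comparison. All tissue was taken at day 35, and no group carries a genetic change. The IEC were detached from the tissue with EDTA and strained, without sorting on a surface marker, so that other cells of the caecal wall may be included. In such bulk RNA, fewer cells of a type and less RNA per cell cannot be told apart.

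The intestinal epithelium is a single layer of absorptive cells, mucus-producing goblet cells, hormone-secreting cells and chemosensory tuft cells, renewed from stem cells in the crypts. Whipworms live in the caecum and colon with the anterior end embedded in this layer. In mice, helminth infection is known for expanding goblet and tuft cells and for faster turnover of the epithelium, driven by type 2 cytokines. T. suis is a parasite of pigs and is used in other hosts as a transient inoculum. The comparison of TSO Water with Veh Water addresses what the ova do to the epithelium when no colitis is induced.

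The deposited tables pair the Ensembl identifiers with a chromosome and a strand, but with no gene symbol, and a name table of 38822 rabbit genes matched 0 of the 17318 identifiers. Goblet, tuft and immune genes could therefore not be picked out, and genes are described by identifier, chromosome and level. The labelled cell type was instead examined with gene lists chosen in other libraries of the study, after the data were seen. These lists compared IEC of the 6 DSS rabbits with LPMC of the 6 Water rabbits and hold genes whose median differed more than 4-fold without overlap. The 316 genes high in LPMC took 0.864% to 1.62% of the nuclear reads in TSO Water IEC and 1.00% to 1.62% in Veh Water IEC, against 10.8% to 21.8% in the LPMC libraries of the same rabbits. The 154 genes high in IEC took 2.09% to 3.18% in TSO Water IEC and 2.31% to 3.52% in Veh Water IEC, against 0.135% to 0.304% in LPMC. By both lists, the 6 libraries lay with IEC, and the TSO Water and Veh Water groups overlapped. For the LPMC list the overlap came from the 1 rabbit of each group that was kept in room B, at 1.62% in both groups, whereas among the rabbits of room A the TSO Water libraries (0.947% and 0.864%) lay below the Veh Water libraries (1.17% and 1.00%). The DSS libraries used for the lists share no rabbit with the groups compared, whereas the LPMC libraries come from the same rabbits. The LPMC libraries also served to choose the lists, so the distance of their ranges from IEC of the DSS rabbits was set by that choice. The IEC libraries of the Water rabbits took no part in it.

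Whole reads were recovered from the deposited values, because the low values of a library are multiples of 1 step. The TSO Water libraries held 13847467, 18689998 and 13338834 reads for rabbits 1, 2 and 3, and the Veh Water libraries 27479968, 21449105 and 13148446. The totals overlapped (exact two-sided permutation test, p = 0.4, where 3 rabbits against 3 cannot give less than 0.1). Veh Water rabbit 1 and TSO Water rabbit 2 were kept in room B and the other 4 in room A. Across genes, which are not independent replicates, these room B libraries correlated at r = 0.951, near the top of the range of 0.905 to 0.954 over all pairs of the 6 libraries. The TSO Water libraries correlated among themselves at 0.915 to 0.936, and each of them correlated most closely with a Veh Water library.

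A count listed at 0 needs care in these tables. For 70 genes, 1 library of a group was listed at 0 while another library of the same group held at least 100 reads, and 18 of these genes lie on the mitochondrial genome. A mitochondrial gene had 806451 reads in TSO Water rabbit 1 and was listed at 0 in the other 5 libraries. A second had 962679 and 588021 reads in Veh Water rabbits 2 and 3 and was listed at 0 in Veh Water rabbit 1. Mitochondrial transcripts are used by every epithelial cell, so a 0 is reported below only as a gene listed at 0, and no fold is given for a gene listed at 0 in every library of a group. Fitted fold changes and medians of gene groups that include single zeros take them as 0. None of the 4 genes named below is among the 70, a count that covers only the 6 libraries compared. In IEC of TSO DSS, ENSOCUG00000021861 had 231 reads in rabbit 2 and was listed at 0 in rabbits 1 and 3.

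The share of mitochondrial reads shows how far such zeros reach. Over all 37 mitochondrial genes, it was 17.4%, 41.7% and 32.0% in TSO Water and 20.1%, 20.5% and 21.0% in Veh Water (exact permutation test, p = 0.4). TSO Water lay both below and above the narrow range of Veh Water. Over the 15 mitochondrial genes with reads in all 6 libraries, the share was 6.29%, 26.2% and 16.3% in TSO Water and 20.1%, 10.5% and 11.0% in Veh Water (exact permutation test, p = 0.7). On these genes the groups overlapped, and the room B library was the highest of each group. Their log2 fold changes ranged from -0.13 to 0.62 with a median of 0.27, and 0 of 15 passed an unadjusted p of 0.05.

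**Figure D1:**
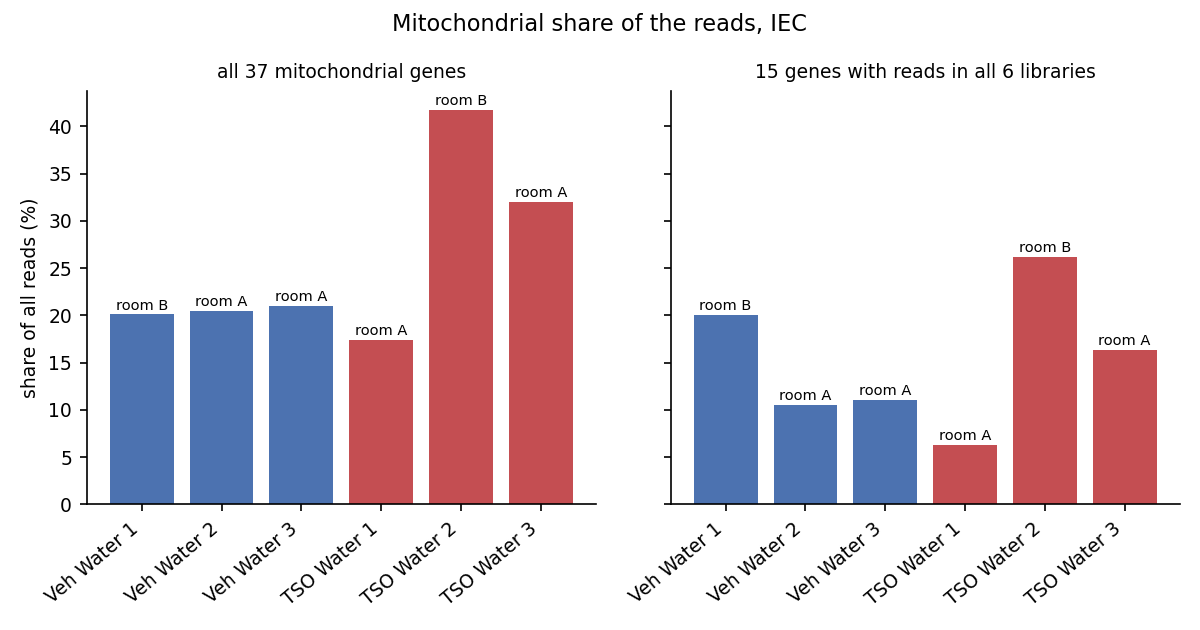
Share of reads of mitochondrial genes (% of all recovered reads, y axis from 0) in each of the 6 IEC libraries, over all 37 genes (left) and over the 15 genes with reads in every library (right). Each bar is 1 rabbit with its room above it; blue is Veh Water and red TSO Water. The Veh Water bars are level at 20.1% to 21.0% on the left and spread from 10.5% to 20.1% on the right.

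Fold changes came from limma, fitted to log2(deposited value + 1), a scale that understates the change of low genes, for genes with a mean value of at least 10 over the 6 libraries. With an absolute log2 fold change above 1 and a Benjamini-Hochberg adjusted p-value under 0.05, 0 of 10114 genes were called, and the lowest adjusted p-value of limma was 0.170. An unadjusted p-value under 0.05 was reached by 331 genes (3.27%), where a share of 0.05 would pass on average if no gene differed. Of the 331, 244 were higher and 87 lower in TSO Water. With recovered reads in the quasi-likelihood test of edgeR, 0 genes were called and an unadjusted p-value under 0.05 was reached by 319. The likelihood ratio test of edgeR called 22 genes (0.218%) and DESeq2 25 (0.248%), of which 20 were shared and 19 of those were higher in TSO Water. Of the 27 genes that either test called, 3 were among the 70 that alternated between 0 and at least 100 reads. The likelihood ratio calls included the mitochondrial gene with 806451 reads in TSO Water rabbit 1 and 0 in the other libraries. With limma, 2 genes (0.0198%) were called after scaling by library size, 2 (0.0198%) with all 12 IEC libraries in the fit, and 1 (0.00989%) without TSO Water rabbit 1 or without TSO Water rabbit 2.

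Both thresholds, unadjusted, were passed by 142 genes (1.4%). Of these, 117 (1.16%) were higher and 25 (0.247%) lower in TSO Water. None of them passed the adjusted threshold of limma, and they were chosen on this same contrast, so their values describe them and test nothing. TSO Water lay wholly above or below Veh Water for 829 genes (8.2%), 437 higher (4.32%) and 392 lower (3.88%), and these were more evenly divided than the genes past both thresholds. Scaling by library size alone, in place of the deposited normalization, gave 96 higher and 72 lower genes past both thresholds, and moved the median log2 fold change of all tested genes from -0.01 to -0.23. More genes were higher than lower under both scalings at these thresholds, but at an unadjusted p-value alone the library size scaling gave 109 higher and 210 lower.

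**Figure D2:**
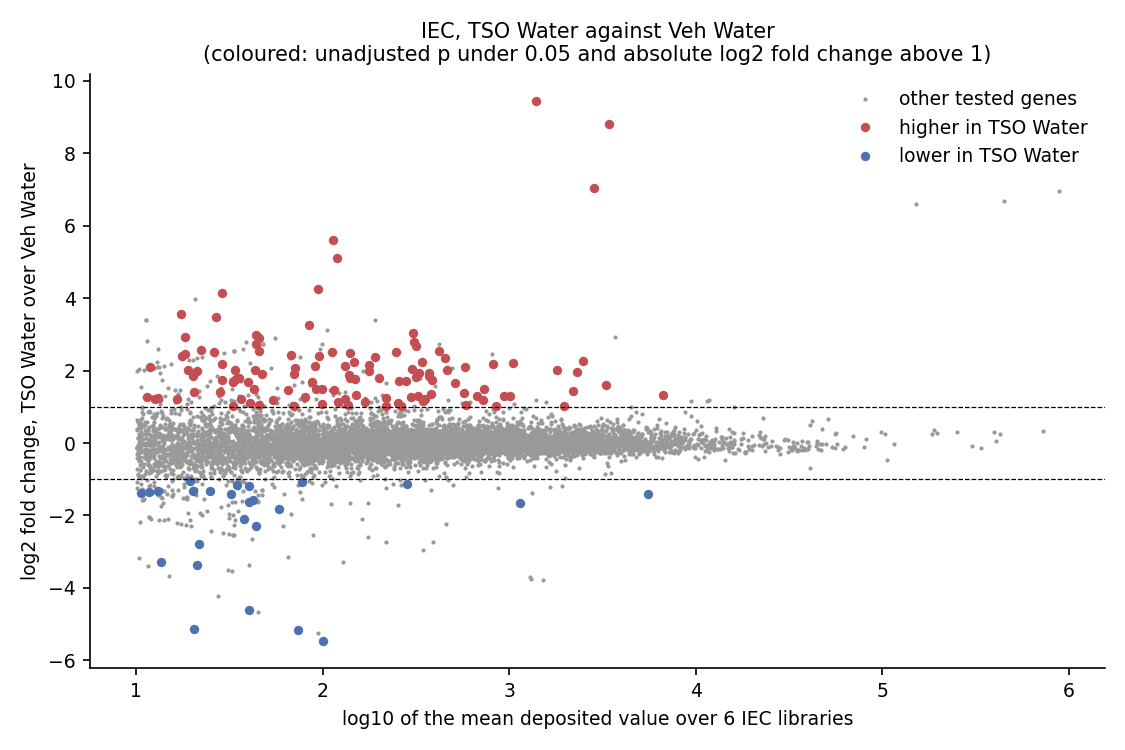
Each point is 1 of 10114 tested genes, with the log10 mean deposited value over the 6 IEC libraries on the x axis and the log2 fold change of TSO Water over Veh Water on the y axis; dashed lines mark a log2 fold change of 1 and -1. Red (117) and blue (25) points passed an unadjusted p of 0.05 and the fold, and the spread widens towards low values; the grey points at the upper right are mitochondrial genes listed at 0 in some libraries.

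The higher genes were mostly moderately expressed. Over the 117 genes, the median read count was 144 in the middle TSO Water library and 55 in the middle Veh Water library, and the most abundant reached 10241 reads in a TSO Water library. Their median log2 fold change was 1.83, with 48 above 2 and 7 above 4, and it was 1.79 over the 110 genes with reads in all 6 libraries. The groups did not overlap for 88 of the 117, against 437 of all 10114 tested genes (4.32%) that were wholly higher. The choice of the 117 on these same libraries favours such a count. The 25 lower genes had a median of 10 reads in the middle TSO Water library and 68 in the middle Veh Water library. Their median log2 fold change was -1.56, with 7 genes listed at 0 in a library, and -1.36 over the 18 with reads in all 6 libraries, where the lowest value was -2.28. Low counts thus carried more of the lower than of the higher genes.

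The rabbits of a group differed in these genes. For the 117 genes, the median log2 level over the Veh Water mean was 1.97, 1.68 and 1.53 in TSO Water rabbits 1, 2 and 3, and -0.32, 0.57 and -0.33 in Veh Water rabbits 1, 2 and 3. Veh Water rabbit 2 lay above the group mean for 89 of the 117 genes. Without this rabbit, 161 genes were higher and 16 lower at both unadjusted thresholds, and without Veh Water rabbit 3 there were 67 higher and 63 lower. For the 25 lower genes, the medians were -1.94, -1.12 and -1.60 in TSO Water and -0.10, 0.14 and 0.02 in Veh Water. Split by room, the 117 genes had a median fold change of 1.67 (log2) in room A and 1.88 in room B, with 117 and 116 of them positive, and that of the 25 genes was -1.83 and -1.14. The genes were chosen on these same libraries, and of all 10114 tested genes 8635 kept the sign of their fold change in room A and 6985 in room B. Room B holds 1 rabbit of each group, which allows no test within it.

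Level decided what the 6 libraries could show. Among the 2362 genes with a mean value of 10 to 100, 51 were higher and 21 lower, or 3.05% past both thresholds, and the 95% confidence interval of a log2 fold change extended by a median of 1.17 to each side. Among 5225 genes from 100 to 1000, 54 were higher and 2 lower (1.07%), with an extension of 0.48. Among 2527 genes of 1000 or more, 12 were higher and 2 lower (0.554%), with an extension of 0.39. Over all tested genes, the interval lay wholly within a log2 fold change of -1 to 1 for 6667 (65.9%), and this share was 19.2%, 77.6% and 85.4% in the 3 classes of level. For most well expressed genes, a change of more than 2-fold thus lay outside the interval, whereas for 3447 genes the interval reached beyond it. Only 17 intervals lay wholly above 1 and 2 wholly below -1.

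The genes past both thresholds were spread over the genome. By the chromosome given in the tables, the median log2 fold change lay between -0.07 and 0.10 on each of the 22 nuclear chromosomes. Chromosome 13 held the most, with 23 higher and 3 lower of 1014 tested genes (2.56%), against 1.4% of all tested genes. It was also the chromosome with the most tested genes. Chromosome 5 had the highest share (2.86%), with 6 higher and 2 lower of 280, followed by chromosomes 4 (2.71%), 13 and 12 (2.47%). Chromosomes 6 and 10 held none. More genes were higher than lower on 18 chromosomes, and more were lower on 1, chromosome 15, with 3 higher and 4 lower. Over all tested genes, 117 were higher and 25 lower past both thresholds. On chromosome X, 3 genes were higher and 0 lower of 383 tested.

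Among the genes past both thresholds whose groups did not overlap, the largest difference was that of ENSOCUG00000004736, on the minus strand of chromosome 13. Its deposited values were 2406, 1321 and 4625 in TSO Water rabbits 1, 2 and 3, from 2131, 1133 and 3223 reads. In Veh Water rabbits 1 and 2 they were 5.245 and 5.801, from 9 and 8 reads, and in rabbit 3 the gene was listed at 0. The lowest TSO Water library thus lay far above the highest Veh Water library. The log2 fold change was 9.46 ± 0.84 (SE, n = 3 per group) with an adjusted p of 0.170 by limma with Benjamini-Hochberg adjustment. Its size depends on the low Veh Water values, and it was 10.7 with a pseudocount of 0.1 in place of 1. Without Veh Water rabbit 3, where the gene was listed at 0, it was 8.55. In room A the log2 fold change was 10.3 and in room B 7.73. The adjusted p passed 0.05 in 4 of 22 alternative fits, among them the likelihood ratio test of edgeR (adjusted p = 4.06e-25) and DESeq2 (adjusted p = 8.25e-42), whereas the quasi-likelihood test of edgeR gave an adjusted p of 0.162.

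ENSOCUG00000004736 was also high in libraries that took no part in its choice. In IEC of the TSO DSS rabbits it had 10000, 1762 and 20652 reads, and in IEC of the Veh DSS rabbits 22, 28 and 5. These 6 libraries come from other rabbits, all in room A, and the groups were again far apart. The log2 fold change was 9.03 ± 1.16 (SE, n = 3 per group), with an adjusted p of 0.613 by limma with Benjamini-Hochberg adjustment over 10365 genes. In LPMC of the TSO Water rabbits the gene had 2434, 366 and 926 reads, and in LPMC of the Veh Water rabbits 4, 3 and 2, with an adjusted p of 0.0214 by limma. In LPMC the log2 fold change was 7.83 ± 0.56 (SE, n = 3 per group). These are the same animals as in the IEC comparison. The log2 fold change with TSO in IEC with DSS minus that without DSS was -0.46 (95% confidence interval -3.94 to 3.02), and that in IEC minus that in LPMC was 1.45 (-0.91 to 3.80). Both intervals include 0 and are wide.

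The next was ENSOCUG00000016758, on the plus strand of chromosome 2. Its deposited values were 1707, 2602 and 12620 in TSO Water, from 1512, 2232 and 8794 reads, and 37.3, 30.46 and 18.79 in Veh Water, from 64, 42 and 15 reads. TSO Water rabbit 3 stood above the other 2 of the group, and the groups did not overlap. The log2 fold change was 7.06 ± 0.73 (SE, n = 3 per group), with an adjusted p of 0.229 by limma with Benjamini-Hochberg adjustment. Without 1 rabbit at a time it ranged from 6.19 to 7.64. The adjusted p passed 0.05 in 3 of 22 alternative fits, again with the likelihood ratio test (7.25e-11) and DESeq2 (1.47e-22) but not with the quasi-likelihood test (adjusted p = 0.356).

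In IEC of the DSS rabbits, ENSOCUG00000016758 had 1699, 123 and 1433 reads with TSO and 54, 33 and 19 with the vehicle. The groups did not overlap, though TSO DSS rabbit 2 lay much nearer to Veh DSS than the other 2 rabbits. The log2 fold change was 4.54 ± 1.20 (SE, n = 3 per group), with an adjusted p of 0.999 by limma. In LPMC of the Water rabbits it had 2048, 947 and 786 reads with TSO and 9, 35 and 56 without, an adjusted p of 0.0988 by limma. The log2 fold change with TSO in IEC with DSS minus that without DSS was -2.51 (95% confidence interval -5.90 to 0.89), and that in IEC minus that in LPMC was 1.73 (-0.84 to 4.30). Neither gene belongs to the list of genes high in LPMC or to that of genes high in IEC.

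The genes that were lower by the same rule had few reads. ENSOCUG00000019650, on the plus strand of chromosome 13, had 22, 82 and 40 reads in Veh Water and was listed at 0 in all 3 TSO Water libraries (adjusted p = 0.612 by limma). It was called in 3 of 21 alternative fits, with adjusted p-values of 0.0158 in limma with all 12 IEC libraries, 8.54e-06 in the likelihood ratio test of edgeR and 4.45e-04 in DESeq2. It had 41, 84 and 68 reads in IEC of TSO DSS and 67, 60 and 40 in IEC of Veh DSS, so that the TSO DSS rabbits did not share the zeros. The interaction of TSO with DSS for this gene had an adjusted p of 0.201 by limma over 10330 genes. In LPMC it was listed at 0 in 2 rabbits of each Water group, with 22 reads in TSO Water rabbit 2 and 21 in Veh Water rabbit 2.

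ENSOCUG00000021861, on the plus strand of chromosome 9, had 18 reads in TSO Water rabbit 1 and was listed at 0 in rabbits 2 and 3, against 207, 75 and 37 reads in Veh Water. Its adjusted p was 0.998 by limma, and it passed in 0 of 21 alternative fits. In IEC of TSO DSS it was listed at 0 in rabbits 1 and 3 and had 231 reads in rabbit 2, within the range of 18 to 245 of Veh DSS. In LPMC it had 57 reads in TSO Water rabbit 1 and was again listed at 0 in rabbits 2 and 3, against 63, 79 and 20 reads in Veh Water (adjusted p = 0.715 by limma). Across all genes, 24 were at or under 3 reads in every TSO Water library and above 3 in every Veh Water library, of which none exceeded 85 reads, and 2 showed the reverse. This count uses raw reads, and the TSO Water libraries held fewer genes above 3 reads, with 10561 ± 169 against 10885 ± 340 in Veh Water (SD, n = 3 per group).

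**Figure D3:**
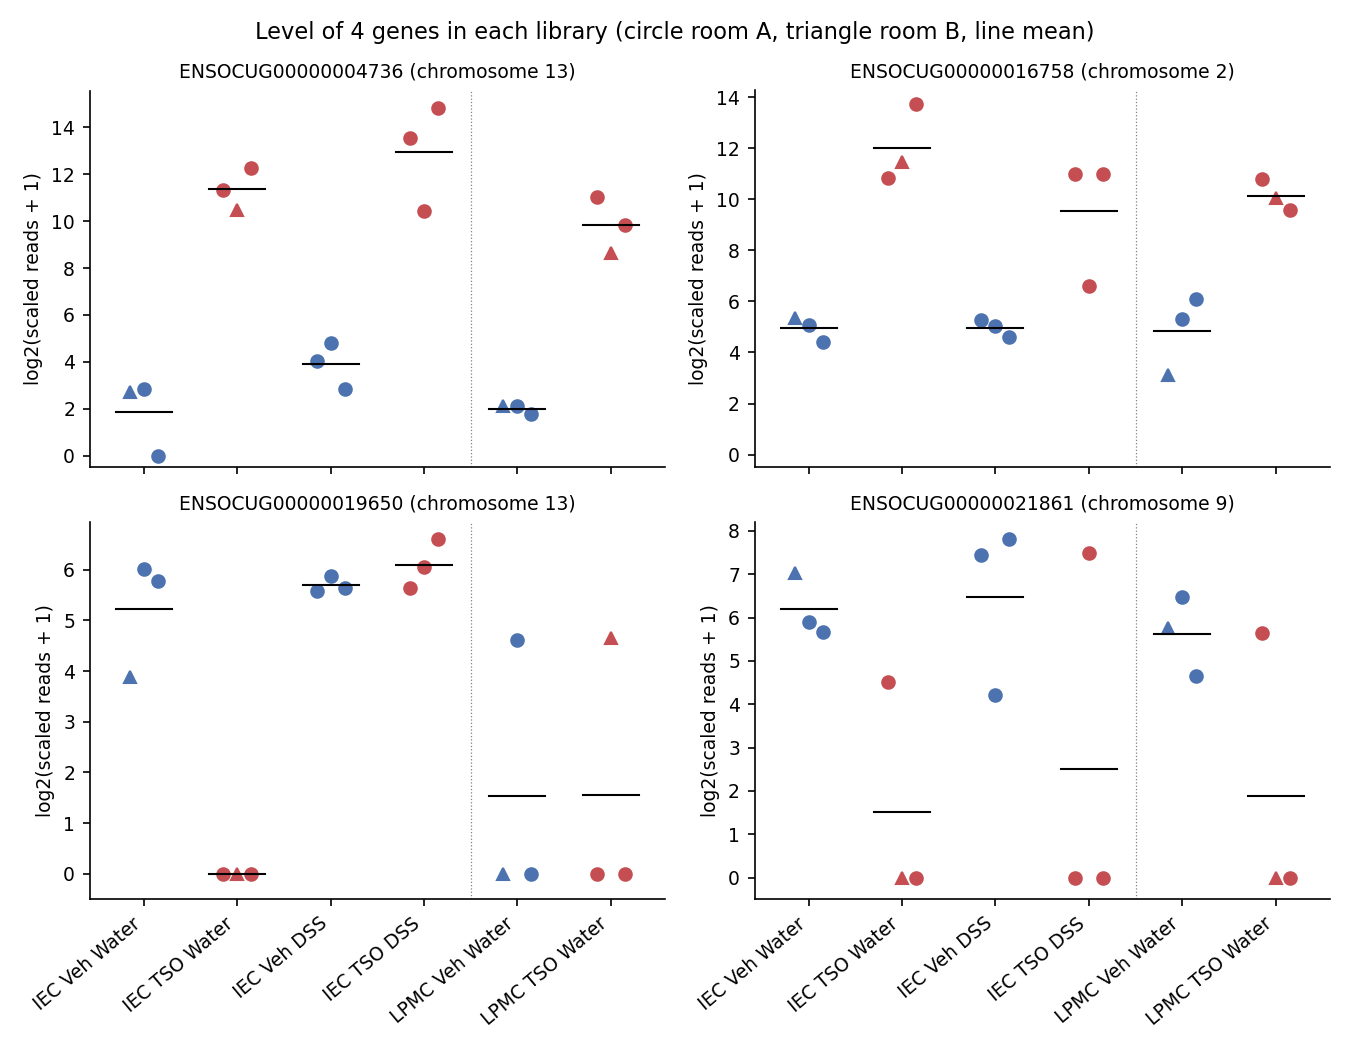
Level of the 4 genes as log2 of the TMM-scaled recovered reads plus 1 (y axis) in IEC of the 4 groups and LPMC of the Water groups, which were scaled separately (right of the dotted line). Points are single rabbits (circle room A, triangle room B), lines group means, red TSO and blue Veh. The upper genes lie above every Veh library of the same section in all 9 TSO libraries shown, with ENSOCUG00000016758 in TSO DSS rabbit 2 the nearest at 123 reads; the lower genes have libraries at 0.

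After these, the next 8 higher genes by the same rule had log2 fold changes of 2.90 to 4.24, with 0.333 as the lowest adjusted p-value of limma and at most 797 reads in a TSO Water library. The next 8 lower genes ranged from -3.28 to -1.41, with at most 167 reads in a Veh Water and 38 in a TSO Water library. Among the genes that met this rule, the differences of the 2 leading higher genes thus stood well apart from the rest. Outside the rule, a gene with 5597, 0 and 9944 reads in TSO Water, listed at 0 in Veh Water, had a larger fitted change than the second of them.

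The DSS rabbits offer libraries that were not used to choose the 117 and 25 genes. Of the 117 higher genes, 100 (85.5%) were also higher in IEC of TSO DSS than of Veh DSS, against 49.4% of all 10114 genes, and the median of their log2 fold changes was 0.79. Both unadjusted thresholds were passed by 21 of the 117 (17.9%) in the higher direction, against 0.849% of the 10365 genes tested in that comparison. After adjustment, limma with Benjamini-Hochberg adjustment called 1 gene of all (0.00965%) and 0 of the 117. The median and the share of genes that were higher rested largely on a single rabbit. The median log2 level of the 117 genes over the Veh DSS mean was -1.51 in Veh DSS rabbit 1, but 1.27 and 0.43 in Veh DSS rabbits 2 and 3, against 0.96, 0.62 and 0.83 in TSO DSS. Veh DSS rabbit 2, which had received no ova, thus lay above all TSO DSS rabbits. Without Veh DSS rabbit 1 the median log2 fold change was 0.079, and 60 of the 117 genes (51.3%) were higher, near the 47.5% of all genes. Without Veh DSS rabbit 2 it was 1.43.

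Genes that kept apart in every DSS rabbit were fewer. The values of TSO DSS lay wholly above those of Veh DSS for 21 of the 117 genes (17.9%), against 2.20% of all genes, and wholly below for 0. With Veh DSS rabbit 1 left out, 21 lay wholly above (7.10% of all genes) and 13 wholly below (8.40% of all genes). Without Veh DSS rabbit 2, 58 lay wholly above (49.6%, against 8.85% of all genes), and without TSO DSS rabbit 2, 34 (29.1%, against 4.61%), with 0 wholly below in both cases. Of the 25 lower genes, 9 (36%) were higher in TSO DSS, against 49.4% of all genes, and their median was -0.32 on the log2 scale. TSO DSS lay wholly below Veh DSS for 1 of them (4%, against 2.02% of all genes) and wholly above for 1 (4%, against 2.20%). Of the 22 tested in that comparison, 0 passed both unadjusted thresholds in the lower direction, against 0.241% of all genes, and 1 (4.55%) in the higher direction, against 0.849%. Without TSO DSS rabbit 3 the median turned to 0.075.

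In LPMC of the same Water rabbits, the median log2 level of the 117 genes over the Veh Water mean was 1.70, 1.29 and 1.38 in TSO Water and 0.35, 0.17 and -0.57 in Veh Water. The groups did not overlap on this median. For the 25 genes, it was -0.61, -0.65 and -0.81 in TSO Water and -0.26, 0.38 and 0 in Veh Water. These libraries share their rabbits with the IEC libraries, and whether an animal differed for another reason than the ova cannot be told apart here.

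**Figure D4:**
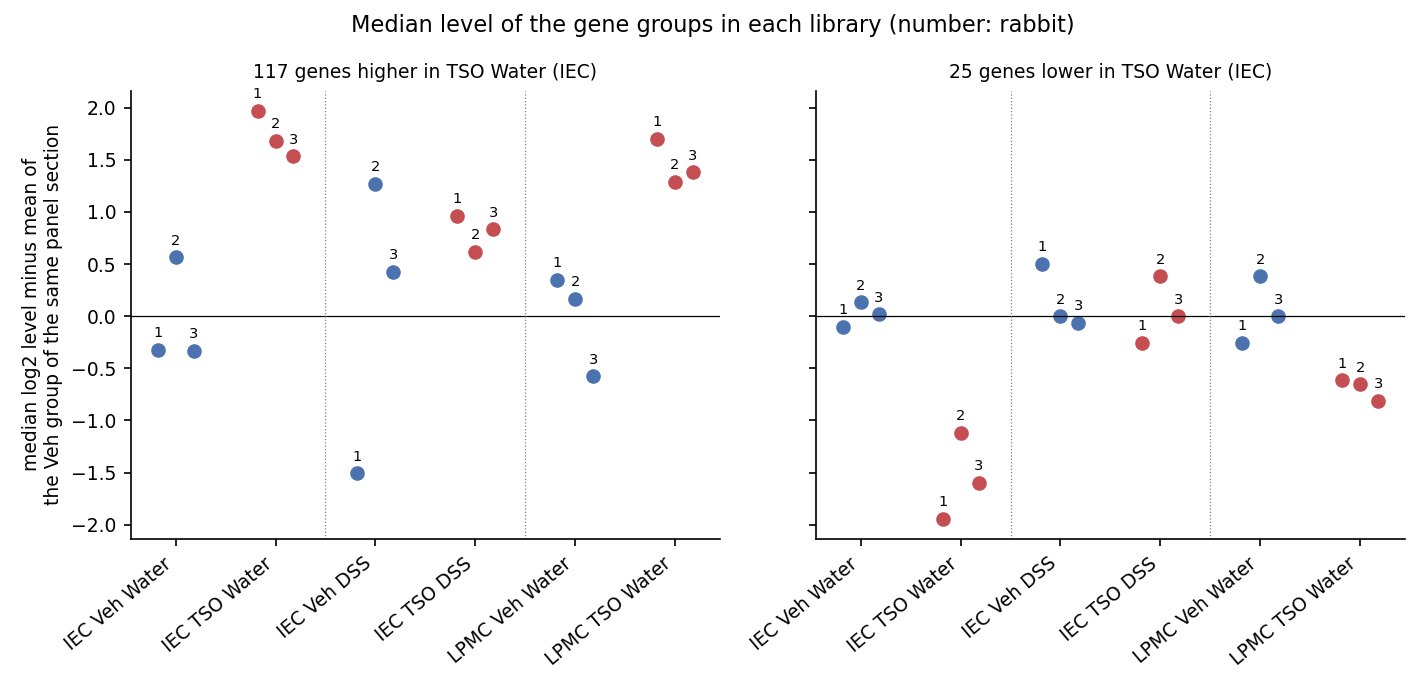
Median log2 level of the 117 genes higher (left) and 25 genes lower (right) in TSO Water IEC, for each library, relative to the mean of the Veh group in the same section (IEC Water, IEC DSS, LPMC Water); the number is the rabbit, red TSO and blue Veh. In the IEC Water section the separation was set by the choice of genes; in the IEC DSS section Veh DSS rabbits 1 and 2 lie at -1.51 and 1.27, on both sides of the TSO DSS rabbits.

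Few genes of the cell type lists passed, as of all genes. Of 284 tested genes high in LPMC, 2 were higher and 0 lower past both unadjusted thresholds (0.704%, against 1.4% of all genes), and the log2 fold change had a median of -0.27 and was positive for 70. Of 150 tested genes high in IEC, 0 passed, the median was -0.10 and 51 were positive. Over all 10114 tested genes, the median was -0.01 and 4838 were positive. The groups did not overlap for 4 higher and 4 lower genes of the LPMC list (2.82%) and for 3 and 3 of the IEC list (4%), against 8.2% of all genes. These values describe the lists, and their part in other results was not tested.

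Differences between responses were tested directly. The difference with TSO varied between IEC with and without DSS for 0 of 10330 genes by limma with Benjamini-Hochberg adjustment, and the unadjusted p-value was under 0.05 for 121 (1.17%). The quasi-likelihood test of edgeR also called 0, with 133 such genes. It varied between IEC and LPMC of the Water rabbits for 0 of 10476 genes (unadjusted p-value under 0.05 for 213, 2.03%), and by the quasi-likelihood test for 0 and 249. These fits, and the intervals of IEC minus LPMC given above, took the libraries as independent although IEC and LPMC of a rabbit are paired. With the rabbit as a block, limma called 0 genes, and 222 had an unadjusted p-value under 0.05. These counts do not show that the responses were alike, since 3 rabbits per group leave wide intervals.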

How the data were processed

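Recovered whole reads and deposited values of 6 IEC libraries were used, with 18 further libraries of the study held for comparison or left out. The authors deposited a normalized signal per gene and library for OryCun2.0, which is the build in the submitters' processing notes beside FastQC; aligner, counting program and scaling are not given in the sources used here. The library is polyA-selected and unstranded. The labels give single-end reads and the methods of the paper paired inserts. The authors' own ratios and p-values were not used. Reads were recovered as multiples of the smallest step, with 100% of values under 1000 within 0.1 of a whole number.

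limma 3.58.1 (trend) in R 4.3.3 was run on log2(signal + 1) for genes with a mean of at least 10, and on TMM-scaled reads for comparisons across tables. edgeR 4.0.16 and DESeq2 1.42.0 were run on the recovered reads as alternatives. Tests were checked on simulated counts. P-values measure the spread between 3 rabbits per group.

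Genes named were the 2 largest changes in each direction among genes past an unadjusted p of 0.05 and an absolute log2 fold change of 1 whose groups did not overlap; only 4 are given because no symbol could be paired. Groups, lists and tests were chosen with earlier results of these data known. The lists of genes high in IEC or LPMC were widened after an 8-fold rule had left too few genes. The planned bound for genes at or under 3 reads was not used, since zeros also occur for abundant genes. Lists of named pathways and cell type markers were not run. Replicate numbers of the Water groups mark different rabbits; the IEC and LPMC of a rabbit are paired by animal, and a rabbit block left the interaction of cell type at 0 called genes. Rooms came from a supplement of the paper. The alternatives were other pseudocounts, filters, scalings, tests and samples.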

Additional observations from a re-analysis of the deposited data

How the results depend on the processing

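The number of called genes in IEC of TSO Water against Veh Water, 0 in the fit reported, was 2 with scaling by library size, 2 with all 12 IEC libraries in the fit, 22 with the likelihood ratio test of edgeR, 25 with DESeq2 and 142 with the unadjusted p-value in place of the adjusted one. It was 0 to 1 with 1 rabbit left out. The call without TSO Water rabbit 1 was a gene with 0, 271 and 251 reads in TSO Water, and the call without TSO Water rabbit 2 a gene with 5597, 0 and 9944, both listed at 0 in Veh Water. Of the 22 and 25 genes, 3 each were among the 4 named. The 331 genes at an unadjusted p under 0.05 became 237 to 589 with 1 rabbit left out, where 589 was without TSO Water rabbit 1, and 167 with the replicate number as a block, which pairs different rabbits and called 0 genes. The deviations of the same-numbered libraries correlated at -0.35, -0.30 and -0.03, and in no pair did a library correlate best with its own number. The 142 genes past both thresholds became 256 with no filter on low values, 81 with a mean value of at least 50 and 222 with the likelihood ratio test. With the room as a covariate, 464 genes passed an unadjusted p of 0.05 and 0 were called. Chosen after seeing the data, leaving out mitochondrial genes, thinning to 13148446 reads and leaving out the 70 genes that alternated with 0 gave 0 called genes and 338, 313 and 327 at an unadjusted p under 0.05. For the interaction of TSO with DSS in IEC, 1 gene was called with a pseudocount of 0.1, and 0 to 2 with 1 rabbit left out (2 without Veh Water rabbit 1, 1 without Veh DSS rabbit 3). For that of cell type with TSO, it was 0 to 1 (1 without TSO Water rabbit 1 and 1 without rabbit 3). In the comparison of TSO DSS with Veh DSS, leaving out 1 rabbit at a time was chosen after seeing the data. The median of the 117 genes was then 0.079 to 1.43 and that of the 25 genes -0.29 to 0.075. The value of 0.075, without TSO DSS rabbit 3, turned the direction. The cause of these changes was not tested. For genes under a mean value of 100, the 95% confidence interval extended by a median of 1.17 to each side.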
